A study of Mus musculus with 2 samples.

Results

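*Coch*, *Otor*, *Pou3f4* and *Tbx18* are genes of the otic mesenchyme and of the fibrocytes that it forms, and they are described here in the embryonic mouse cochlea. They were chosen by name, with earlier results of these data known. All probe sets that the annotation of the Affymetrix MOE430A array pairs with only 1 of these symbols were used. This gave 5 probe sets of 4 genes among 12393 genes measured. The study set cochleae of *Igf1* null embryos (*Igf1*-/-, a targeted disruption) against those of wild type embryos (*Igf1*+/+), all from heterozygous C57BL/6J parents, collected on embryonic day 18.5 without treatment, and dissected with the otic capsule but without vestibular tissue. There are 2 arrays, 1 per title, and their labels oppose each other, since the one titled −/− has a wild type source name and description and the one titled +/+ has those of the null. Genotype is therefore open, every value below is given by title, and if the source names hold each sign belongs to the opposite genotype. The methods describe 3 RNA pools per genotype, so each column of values, called an array here, may stand for a single hybridisation or for a summary of 3.

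The otic mesenchyme surrounds the developing inner ear epithelium, and it forms the bony otic capsule, the spiral limbus and the spiral ligament of the lateral wall. The fibrocytes of the ligament anchor the lateral wall and take part in the return of potassium ions to the stria vascularis. *Pou3f4* (Brn4) encodes a POU domain transcription factor and *Tbx18* a T-box transcription factor, and both are needed in the mouse for the fibrocytes to form normally. *Coch* encodes cochlin, an abundant matrix protein of the ligament and limbus with an LCCL domain and von Willebrand factor A domains, and *Otor* encodes otoraplin, a small secreted protein of the MIA family. Mutations of the human *POU3F4* and *COCH* genes cause inherited deafness.

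The 4 genes shared a direction on these arrays, as given further on. That is a description only, since they were chosen with earlier results of these data known. The sequences just before the genes are shown for that shared direction, and no link to it was tested. They are the strands of the genes 5′ to 3′ from RefSeq, build GRCm38.p6, at chr12:51593091-51593282 (plus strand, 192 bases, ended at the first annotated transcript), chr2:143078143-143078392 (plus), chrX:110814129-110814378 (plus) and chr9:87731261-87731510 (minus), the last 3 of 250 bases. Capitals mark, on either strand, the GC box letters GGGCGG within the *Coch* sequence, the TATA box letters TATAAA within that of *Otor* and the CCAAT box letters within those of *Pou3f4* and *Tbx18*.
Coch: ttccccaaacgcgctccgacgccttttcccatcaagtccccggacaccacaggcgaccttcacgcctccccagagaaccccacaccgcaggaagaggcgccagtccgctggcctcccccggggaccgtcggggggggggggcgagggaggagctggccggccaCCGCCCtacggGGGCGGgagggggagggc
Otor: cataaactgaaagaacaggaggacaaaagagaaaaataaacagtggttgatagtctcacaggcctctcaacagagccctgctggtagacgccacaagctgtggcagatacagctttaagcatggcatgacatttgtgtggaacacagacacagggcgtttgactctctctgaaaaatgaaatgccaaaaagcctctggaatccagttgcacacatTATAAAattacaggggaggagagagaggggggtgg
Pou3f4: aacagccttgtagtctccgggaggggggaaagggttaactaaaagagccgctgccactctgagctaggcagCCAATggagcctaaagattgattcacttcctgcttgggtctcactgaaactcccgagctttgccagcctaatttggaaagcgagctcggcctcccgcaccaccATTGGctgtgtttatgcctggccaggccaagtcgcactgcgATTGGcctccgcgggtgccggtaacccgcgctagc
Tbx18: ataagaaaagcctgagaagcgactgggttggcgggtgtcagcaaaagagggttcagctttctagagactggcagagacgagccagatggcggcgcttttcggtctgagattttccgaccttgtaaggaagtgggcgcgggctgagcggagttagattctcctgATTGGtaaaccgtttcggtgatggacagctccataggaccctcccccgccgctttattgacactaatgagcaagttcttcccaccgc

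All 4 genes matched in the promoter table. The motifs searched on both strands in the 250 bases before the table's start site were these 3 with the T-box letters GGTGTGA and the POU octamer ATGCAAAT. No motif was shared by all 4 genes. The TATA letters of *Otor* began 35 bases before the start, and 12.4% of 32851 promoters of this length hold such a match. CCAAT letters began 179, 76 and 35 bases before the start of *Pou3f4* and 87 bases before that of *Tbx18*, and are found in 33.8% of promoters. The GC box letters of *Coch*, found in 32.7%, began 87, 76 and 6 bases before the start, the last outside the printed stretch. The T-box letters (3.33% of promoters) and the octamer (1.6%) had no match in the 4 windows. The printed stretch of *Coch* has a G and C content of 74.0% and that of *Otor* 46.0%, with 58.0% for *Pou3f4* and 54.0% for *Tbx18*, against a median of 52.4% over all windows. These matches are descriptions of letters and were not tested as sites.

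The authors deposited a log2 level for each probe set, between 0 and 13.67, and the median level was 6.63 on the −/−-titled array and 6.58 on the +/+-titled one. Each difference is the level on the −/−-titled array less the level on the +/+-titled one, with the median difference of all probe sets, 0.022, taken off. With 1 array per title no replicate, test or p-value is possible, and precision is limited by how few arrays there are. Error can be read only within these arrays, from the spread of differences over the 1000 probe sets nearest in mean level and the disagreement between probe sets of the same gene. For 1210 genes with 2946 probe sets at levels above 7.86, where all 5 probe sets here lie, the pooled SD of this disagreement was 0.098. Neither covers the spread between animals or RNA pools. The disrupted gene, *Igf1*, was read by 3 probe sets on both arrays, with differences of −0.42, −0.58 and −0.75. All 3 were thus lower on the −/−-titled array but present on both, and which part of the gene they read was not determined, so they do not settle the labels.

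All 5 probe sets of the 4 genes lay above the median level on both arrays, and all 5 were lower on the −/−-titled array, by 0.22 to 0.67 log2 units with a median of −0.44. Among all probe sets, 46.9% were lower on that array, and over those above the median level 49.7%, with a median of 0 over all. Because the genes were chosen with earlier results of these data known, their shared direction is a description only. The 2 transcription factor genes had the largest differences, and *Otor* the smallest. None of the 5 passed the study's size limit of 1 log2 unit, which 11.3% of all probe sets and 0.38% of those above the median level passed in either direction. In whole tissue, fewer fibrocytes, less RNA per fibrocyte and a different share of other tissues cannot be told apart.

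**Figure D1:**
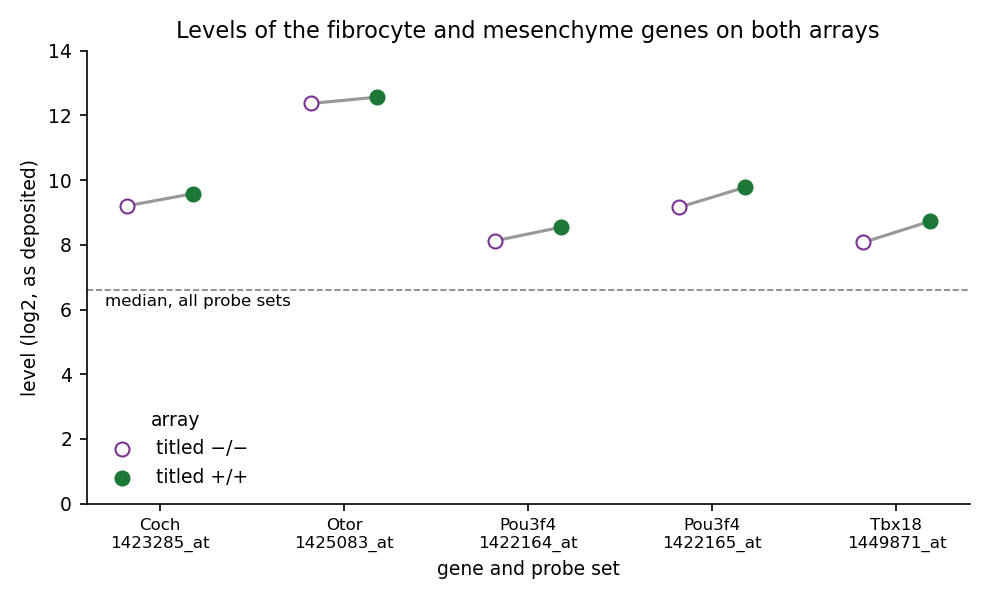
Deposited log2 level (vertical axis) of each of the 5 probe sets on the −/−-titled array (open purple, left) and on the +/+-titled array (filled green, right), 1 value per array and no error bar. The left point lies below the right one for all 5, and all points lie above the median of all probe sets, drawn as a dashed line. Heights of different probe sets cannot be compared.

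*Tbx18*, whose product acts in the mouse in the mesenchyme that becomes spiral ligament, had a level of 8.08 on the −/−-titled array and 8.72 on the +/+-titled one. The −/−-titled array was thus lower by 0.67 on the log2 scale, a ratio of 0.629 for its only probe set. Among the 1000 probe sets nearest in level, 95% of differences lay between −0.28 and 0.36, and 0.1% were as low as that of *Tbx18*. In either direction, 0.9% were as large.

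*Pou3f4* was read by 2 probe sets, both designed on the same sequence record. Its probe set of the higher level was at 9.16 on the −/−-titled array and 9.78 on the +/+-titled one, a difference of −0.64 and a ratio of 0.640. The other was at 8.13 and 8.55 by the same titles, a difference of −0.44 and a ratio of 0.736. Both were lower on the −/−-titled array, and 0.4% and 0.6% of the 1000 probe sets nearest in level were as low. In either direction, 1.1% and 2.5% were as large. The 2 differences were 0.20 apart. Among 888 genes with at least 2 probe sets at a level of 8.34 or more, the median gap was 0.078 and 9.01% had a gap as large as that of *Pou3f4*. The probe sets of *Pou3f4* thus shared a direction, as those of 67.7% of these genes did, but differed in size more than most. Both probe sets lay at −0.4 or below in 5 of the 888 genes (0.563%), which were *Pou3f4*, the transforming growth factor gene *Tgfb2*, the platelet-derived growth factor gene *Pdgfc*, clusterin (*Clu*) and transthyretin (*Ttr*). This limit, and so the other 4 names, were chosen after the values were seen.

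**Figure D2:**
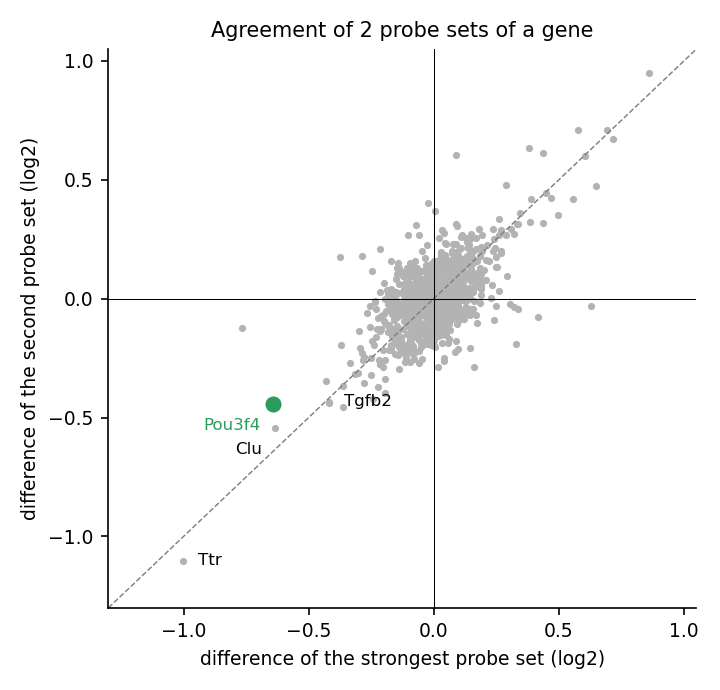
Centred log2 difference of the strongest probe set (horizontal axis) and of the second strongest (vertical axis) of each of 888 genes with both at a level of 8.34 or more, 1 point per gene, with equality as a dashed line. *Pou3f4* (green) lies at −0.64 and −0.44, above the line and apart from the cloud around 0.

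*Coch*, the cochlin gene, was at 9.20 on the −/−-titled array and 9.58 on the +/+-titled one for its only probe set. The difference was −0.40, a ratio of 0.758, and 1.6% of the 1000 probe sets nearest in level were as low. In either direction, 3.5% were as large. The difference of *Coch* lies outside the central 95% of those differences, from −0.31 to 0.36.

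*Otor*, the otoraplin gene, was at 12.37 on the −/−-titled array and 12.57 on the +/+-titled one, a difference of −0.22 and a ratio of 0.859. It lay inside the central 95% of the 1000 probe sets nearest in level, from −0.24 to 0.35, of which 3% were as low. In either direction, 7.9% were as large. Few probe sets lie near this level, so those 1000 reach down to a level of 10.29. *Otor* was thus the only one of the 4 genes inside the central 95% of its 1000 nearest probe sets.

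**Figure D3:**
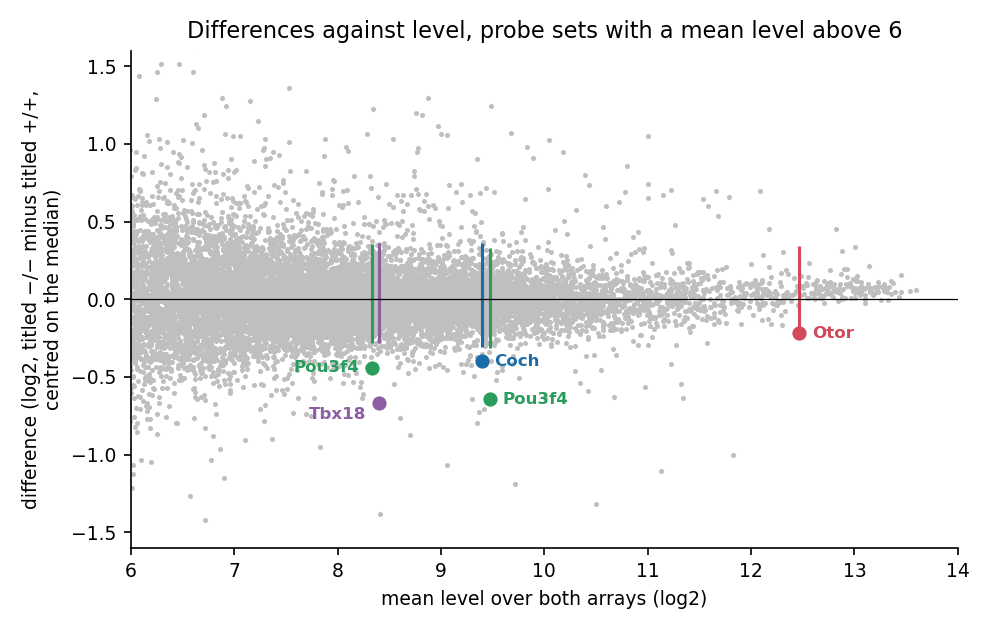
Centred log2 difference, titled −/− minus titled +/+, plotted against the average log2 level of the 2 arrays, 1 grey point per probe set with a mean level above 6 (11 of the 12956 lie outside the plotted range), with the 5 probe sets in colour. Coloured bars span the central 95% of the 1000 probe sets nearest in level to each. *Tbx18*, *Pou3f4* and *Coch* lie below their bars and *Otor* at −0.22 lies at the lower end of its bar.

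Other transcription factors of mesenchyme were split, with more of them lower than higher. Of 13 measured genes, 8 were lower and 5 higher on the −/−-titled array, with a median of −0.21, against 47.1% lower and a median of 0.0028 over all genes. Of the 8 above the median level of genes, 6 were lower, with a median of −0.28, against 50.9% of all genes above that level. *Foxc1* and *Foxc2*, forkhead genes of head and vascular mesenchyme, were at 9.18 and 9.11 on the −/−-titled array against 9.53 and 9.45 on the +/+-titled one, differences of −0.37 and −0.36. *Twist1*, a basic helix-loop-helix gene of cranial mesenchyme, was at 7.82 on the −/−-titled array and 8.15 on the +/+-titled one, a difference of −0.36. The limb and head mesenchyme gene *Prrx1* went the other way, at 9.58 and 9.40 by the same titles, a difference of 0.16, and 1 of its 4 probe sets was at −0.17. *Meox2*, a homeobox gene of mesoderm, was higher by 0.38, at 7.57 on the −/−-titled array and 7.16 on the +/+-titled one, the largest size of the list above the median level, and its other probe set was at 0.96. *Tbx15*, the gene most closely related to *Tbx18* in this list, was higher by 0.70 at 6.99 on the −/−-titled array and 6.26 on the +/+-titled one. Its other probe set was at 1.52. The sizes of *Tbx18* and *Pou3f4* were larger than those of every gene of the list above the median level. Past the size limit were *Tcf21* at −3.05, with levels of 3.26 on the −/−-titled array and 6.29 on the +/+-titled one, and *Alx4* at 1.14, both below the median level. Of all genes, 4.07% passed the limit downwards and 5.54% upwards.

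Relatives of the 2 transcription factor genes were split in direction. Of 8 measured POU domain genes 4 were lower and 4 higher. Only *Pou6f1* was above the median level of genes, at 8.30 on the −/−-titled array and 8.39 on the +/+-titled one. It differed by −0.11, and its other probe set by −1.33. The POU genes nearest to *Pou3f4* in family, *Pou3f1* and *Pou3f3*, differed by −0.20 and 0.22 at levels near 5. The other probe set of *Pou3f1* was at 0.47. *Pou3f2*, a gene of neural progenitors, differed by 1.72 at a mean level of 4.12. Of 12 T-box genes 5 were lower and 7 higher, where 47.1% of all genes were lower. Only *Tbx1* and *Tbx2* were above the median level, and both of these 2 were lower, with a median of −0.21. Some T-box genes below that level had probe sets of both signs. *Tbx1*, which acts in otic epithelium and mesenchyme, differed by −0.13 at 8.74 titled −/− and 8.84 titled +/+, and *Tbx2* by −0.29. *Tbx3*, a close relative of *Tbx2*, was higher by 0.44, at 6.48 titled −/− and 6.02 titled +/+, and its other probe set was at 1.37. The cartilage gene *Mia* and the secretory pathway gene *Mia3*, relatives of *Otor*, differed by −0.07 and −0.14, and *Mia2* was listed at 0 on both arrays.

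Of 7 measured genes with LCCL or von Willebrand factor A domains, like *Coch*, 5 were lower on the −/−-titled array, with a median of −0.16. Of the 5 above the median level of genes, 4 were lower, with a median of −0.29. Among all genes 47.1% were lower, and 50.9% of those above that level. *Crispld1*, which encodes an LCCL domain protein, was at 8.60 on the −/−-titled array and 8.90 on the +/+-titled one, a difference of −0.32. The matrilin genes, whose products link cartilage matrix, were split, with *Matn4* at −0.29, *Matn3* at −0.30 and *Matn1* at 0.23. Ephrins and Eph receptors were listed because *Epha4* acts downstream of *Pou3f4* in mouse otic mesenchyme. Of these 17 genes, 10 were lower, with a median of −0.10. *Epha4*, named for that link and not by level, was at 6.87 on the −/−-titled array and 7.34 on the +/+-titled one, and its 2 probe sets differed by −0.49 and −0.44. Of the probe sets nearest in level, 3.7% had a difference of that size in either direction. *Efnb2*, an ephrin gene, differed by 0.13 and *Efnb1* by −0.10.

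Other genes of fibrocytes were split in direction, with list medians close to 0. Of 12 measured genes of fibrocyte ion transport and metabolism, 6 were lower and 6 higher, with a median of −0.02. *Car3*, carbonic anhydrase 3, was at 12.38 on the −/−-titled array and 12.19 on the +/+-titled one, a difference of 0.17. The caveolin gene *Cav1* differed by 0.17 and the connexin 43 gene *Gja1* by 0.31, the 6 probe sets of *Gja1* lying between 0.10 and 0.33. The sodium-potassium-chloride cotransporter gene *Slc12a2* differed by −0.21, its 3 probe sets lying between −0.42 and −0.21. The lowest of the list was the connexin 26 gene *Gjb2* at −0.80. The otospiralin gene *Otos*, a fibrocyte gene of the mature cochlea named for that role, was below the median level at 4.16 on the −/−-titled array and 4.21 on the +/+-titled one. Of 17 fibrous matrix genes, all above the median level, 7 were lower and 10 higher, with a median of 0.045. *Col1a1*, *Col1a2* and *Col3a1*, the main fibrillar collagen genes, differed by 0.19, 0.10 and 0.07, and decorin, *Dcn*, by −0.07, while the lowest was the matrix gene *Tgfbi* at −0.36. With this list as the zero line, *Tbx18* stood at −0.71, *Pou3f4* at −0.69, *Coch* at −0.45 and *Otor* at −0.26. The 12 cartilage genes of the otic capsule had a median of 0.012, with *Col2a1* at 13.45 on the −/−-titled array and 13.42 on the +/+-titled one. They ranged from −0.15 to 0.80, the highest being the collagen gene *Col10a1*. With cartilage as the zero line the 4 genes stood at −0.68, −0.66, −0.41 and −0.23, in the same order.

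**Figure D4:**
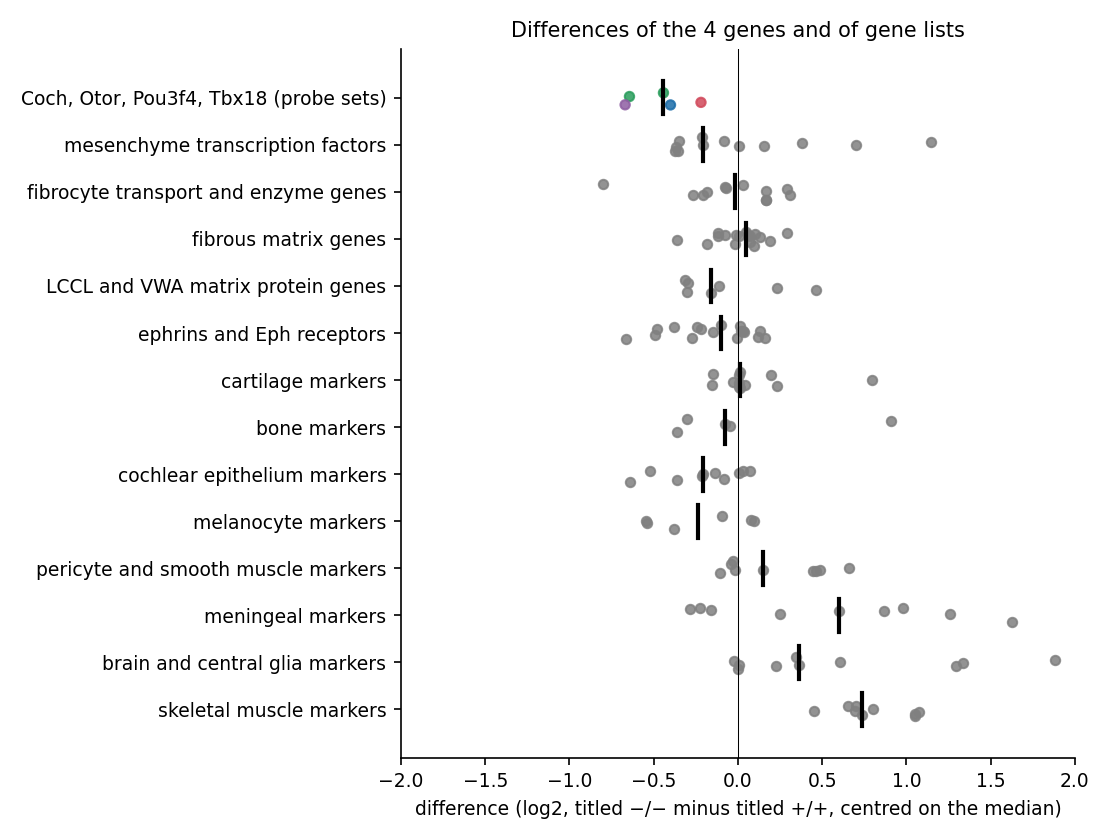
Centred log2 difference, titled −/− minus titled +/+ (horizontal axis), of the 5 probe sets (top, coloured by gene) and of the genes of 13 lists, 1 point per gene and a black line at the median of each row. The 5 probe sets lie between −0.67 and −0.22, while the fibrous matrix and cartilage genes centre near 0 and skeletal muscle markers lie at or above 0.45. Outside the plotted range are 1 gene each of the mesenchyme and brain lists and 2 cochlear epithelium markers.

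Markers of other tissues also differed between the arrays, and their part in these values was not tested. The 3′ over 5′ excess of the *Gapdh* controls was 0.36 on the −/−-titled array and 0.27 on the +/+-titled one. That of the beta-actin controls was 0.96 and 0.93 by the same titles, and the 18S rRNA controls averaged 7.37 and 6.57. All 9 skeletal muscle markers were higher on the −/−-titled array, with a summed linear level of 27151 there and 16812 on the +/+-titled array. Of 9 meningeal markers, of a tissue that also expresses *Foxc1*, 6 were higher, with sums of 10793 titled −/− and 9193 titled +/+. Of 11 markers of brain and central glia, where *Pou3f4* is also expressed, 9 were higher, with sums of 909 and 607 by the same titles, and *Slc1a2* was listed at 0 on both. Over the genes above the median level, 3 of 6 meningeal markers were lower, with a median of 0.047. Among these 6, *Zic1* and *Ptgds* differed by 0.98 and 0.60, and *Foxd1* and *Mgp* by −0.29 and −0.16. The brain list held 1 gene above that level, *Slc1a3*, at 0.0082 with its lowest probe set at −0.39. Below that level, 4 brain markers, *Olig1* at 1.30 among them, and 2 meningeal markers were higher by more than 1 log2 unit. Of all genes, 5.54% were. The pericyte and smooth muscle list, another known place of *Tbx18*, had 4 genes lower and 5 higher, with sums of 5386 titled −/− and 4676 titled +/+. The pericyte genes *Rgs5*, *Pdgfrb* and *Cspg4* differed by −0.11, −0.04 and −0.02, with probe sets of both signs for each, and *Notch3* by 0.15. The smooth muscle actin gene *Acta2*, at 10.81 on the −/−-titled array and 10.33 on the +/+-titled one, was higher by 0.47, and *Tagln*, *Abcc9* and *Myh11* by 0.66, 0.49 and 0.45. The other probe sets of *Acta2* and *Myh11* were at 1.76 and 2.26. None of the muscle, meningeal or pericyte markers was listed at 0.

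On the side of the 4 genes, all 8 lung epithelium markers were lower on the −/−-titled array, with a summed level of 353 there and 2760 on the +/+-titled array and none listed at 0. Only 1 of the 8, the surfactant gene *Sftpc*, lay above the median level of genes. It differed by −3.49 and its other probe set by −0.90. The other probe set of the surfactant gene *Sftpa1* was at 0.68. *Tcf21*, given above, is known from lung mesenchyme among other tissues. Of 12 markers of cochlear epithelium 9 were lower, with sums of 7586 titled −/− and 8305 titled +/+. The tectorial membrane genes *Tecta* and *Tectb* differed by −0.52 and −0.64, a size like that of *Pou3f4*, and *Epyc* and *Oc90* by −0.13 and 0.07. The lowest of the list were the potassium channel genes *Kcne1* and *Kcnq1* of strial marginal cells, at −3.73 and −2.42, both below the median level. Of 6 melanocyte markers 4 were lower, with sums of 762 and 987 by the same titles, and *Dct* and *Pmel*, of pigment synthesis, both differed by −0.54. Bone markers were not clearly on either side. Of 5 measured, 4 were lower, with a median of −0.08, but the sums were 1978 titled −/− and 1437 titled +/+. *Ibsp*, bone sialoprotein, was higher by 0.91, at 10.36 on the −/−-titled array and 9.43 on the +/+-titled one.

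The genes whose pair of levels came nearest to each of the 4, by Euclidean distance over the 2 arrays, are named as a description. For *Coch* these were the basement membrane gene *Nid2*, *Tgfb2* and *Foxc1*, at distances of 0.034 to 0.059 and with differences of −0.35, −0.42 and −0.37. For *Pou3f4* they were the aminopeptidase gene *Enpep*, *Tecta* and the collagen gene *Col26a1*, with differences of −0.71, −0.52 and −0.47. For *Tbx18* they were *Btg2*, *Dct* and *Sort1*, at −0.61, −0.54 and −0.33. Few genes lie near the level of *Otor*, and the nearest, *Ctnnb1*, *Uqcrb* and *Dcn*, had differences of 0.03, 0.07 and −0.07. With only 2 arrays this likeness reflects the level as much as the difference.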

How the data were processed

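The authors hybridised biotin-labelled cochlear cRNA to MOE430A arrays. The deposited table has 1 column per title. The labels give 8 cochleae per array, while the methods give pools of 2 embryos and 3 pools per genotype, so a level may be that of 1 array or a summary of 3. The methods name MAS5.0, RMA and multi-mgMOS of PUMA, and which of these made the deposited log2 values remains not given in the sources used here. Scaling between arrays is not stated, and the base 2 was taken from the range of values.

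Of 22690 probe sets, 64 controls were left out of all counts and differences. Of the rest 20380 have 1 symbol, 691 several and 1555 none in the platform annotation, and 20351 matched RefSeq by gene ID. A gene with several probe sets is given by that of the highest mean level. The 694 probe sets at 0 on both arrays count as neither lower nor higher. Summed levels add 2 to the power of each level.

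The 4 genes and 17 lists (192 entries, 170 measured) were chosen with earlier results of these data known. *Tbx15* and *Matn1* stand in 2 lists each. Named genes are the 4, *Igf1*, in each list up to 4 of the highest level and any beyond 1 log2 unit above the median level, and the nearest by level. Others (*Epha4*, *Otos*, *Gjb2*, *Tgfbi*, *Meox2*, *Notch3*, *Tagln*, *Abcc9*, *Myh11*, *Kcne1*, *Kcnq1*, *Tcf21*, *Alx4*, *Pou3f2*, *Sftpa1* and *Col10a1*) stand outside this rule. So do those called chosen after their values were seen, and not all genes the rule allows are named. Alternatives were no centring, quantile normalization, loess (span 0.3), a floor at the 25th percentile, mean over probe sets, no _x_at or _s_at probe sets, genes above the median level and a size limit of 2. Centring on the fibrous matrix or cartilage genes was chosen after seeing the data. The difference, with and without each form of centring or normalization, was first run on simulated arrays with known differences. The other steps were not run on simulated arrays. Analyses used Python 3.11.15 with statsmodels 0.14.6, scipy 1.17.1, pandas 2.3.3, numpy 2.4.6 and matplotlib 3.10.9.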

Additional observations from a re-analysis of the deposited data

How the results depend on the processing

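All 5 probe sets of the 4 genes stayed lower on the −/−-titled array without centring, after quantile normalization, after loess and with low values raised, and none passed a limit of 1 or 2 log2 units. Over these settings, the added zero lines and the mean over probe sets, *Tbx18* ranged from −0.71 to −0.65, *Pou3f4* from −0.69 to −0.54, *Coch* from −0.45 to −0.38 and *Otor* from −0.27 to −0.20. *Pou3f4* moved by more than the SD between probe sets only as the mean of its 2 probe sets, at −0.54. None of the probe sets ends in _x_at or _s_at. Mesenchyme transcription factors kept a negative median in all 7 settings, from −0.28 to −0.19. The medians of the POU list (−0.11 to 0.18), the T-box list (−0.21 to 0.32), the fibrocyte transport list (−0.02 to 0.07) and the cartilage list (−0.05 to 0.03) changed sign between settings. The median of meningeal markers was 0.60 over all of them and 0.05 over those above the median level, and that of brain markers 0.36 and 0.0082. The median of lung epithelium markers was −3.57, but −1.42 with low values raised and −1.96 with the mean over probe sets. No paired analysis was possible because there is 1 array per title and no result comes from a test. With 1 array per title, differences between animals could not be separated from differences between titles.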
